A study of Mus musculus with 6 samples.

Results

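The genes described here code for the proteasome and its helpers in mouse embryonic stem (ES) cells that make CTCFL. They were taken by name. Of 19937 genes with 1 platform symbol, those whose symbol begins with Psma, Psmb, Psmc, Psmd, Psme, Psmf or Psmg followed by a number were kept, 50 in all from 56 rows of the value table, with the brightest row for each gene. The naming rule uses no measured value, but the set was chosen with earlier results of these data known. Of the 50, 48 code for proteasome subunits, chaperones, activators or an inhibitor. The other two, Psmc3ip and Psme3ip1, match only by symbol and are given apart.

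The study compared 3 cultures that carry a vector for FLAG-tagged mouse CTCFL with 3 that carry the control vector. CTCFL (BORIS) is the germ cell paralog of CTCF, a DNA-binding protein that organises chromosome loops. All 6 cultures were ES cells cloned from 46C. That male 129P2/OlaHsd line has GFP knocked in at Sox1. Both groups were stably transfected, grown in 10% serum and held under 1 µg/ml puromycin. Each culture gave 1 Affymetrix Mouse Gene 1.0 ST array, and every value below is a log2 signal or a difference of log2 signals, FLAG-CTCFL minus control vector. How many independent clones each group holds is not given in the sources used here, so p-values reflect only how far these arrays differ among themselves, which may be partly technical.

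The proteasome is the protease that breaks down proteins tagged with ubiquitin. Its barrel-shaped core particle is built from rings of alpha subunits, which gate the entry, and rings of beta subunits, some of which carry the active sites. A regulatory particle with a base of ATPases and a lid caps the core, captures the ubiquitin tag, removes it and unfolds the substrate. Other caps and exchangeable beta subunits change what the core cuts, above all in cells that present antigen, and dedicated chaperones assemble the whole. ES cells depend on proteasome activity as all growing cells do.

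Array medians lay between 7.92 and 7.99 and the SDs of the arrays between 1.41 and 1.47, lowest in FLAG-CTCFL replicate 2. Ctcfl, which checks the labels, was at 7.70 to 7.89 in control cultures and at 11.22 to 11.33 in FLAG-CTCFL cultures. All 7 markers listed for ES cells were bright, 1 higher and 4 lower with FLAG-CTCFL, where 12.5% and 18.4% of all genes were. Sall4 rose (0.21), and Nanog showed the largest fall (-0.62). The ES list mean was 12.52 to 12.53 in control cultures and 12.22 to 12.35 in FLAG-CTCFL cultures. As bulk RNA was measured, fewer cells of a type and less RNA per cell cannot be told apart. Among markers of other cell types, 1 of 8 fibroblast, 1 of 6 endoderm, 2 of 5 neural, 1 of 4 mesoderm and 4 of 5 trophoblast genes were higher. The fibroblast and endoderm shares, 12.5% and 16.7%, were near the 12.5% of all genes. The largest rises in the trophoblast and neural lists were those of Krt8 (1.15) and Nes (0.68). The fibroblast marker Thy1 (-0.48) and the neural marker Neurod1 (-0.38) were lower. The trophoblast list mean was 8.43 to 8.44 in control cultures and 9.02 to 9.13 in FLAG-CTCFL cultures, the fibroblast list mean 8.49 to 8.52 and 8.46 to 8.51, and their part in the results below was not tested. A dim reference was taken from 1194 olfactory and vomeronasal receptor genes, whose mean signals had a 95th percentile of 7.63. Only 2 of the 48 proteasome genes, Psmb8 and Psmb11, had a mean below it, and 40 of the 48 lay among the brightest 25% of all genes.

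Among proteasome genes rises outnumbered falls in FLAG-CTCFL cells, by small amounts, and a few genes were clearly lower. Of the 48, 17 were higher and 7 lower (limma, Benjamini-Hochberg adjusted p under 0.05 over all genes), and 24 did not pass. That is 35.4% higher and 14.6% lower, where the background over all genes was 30.9% called, 12.5% higher and 18.4% lower. Among the brightest 25% of genes 48.6% were called, 17.6% higher and 31.0% lower, against 37.5% higher and 12.5% lower of the 40 proteasome genes that are as bright. The median difference over the 48 was 0.08, against 0.0037 over all genes and -0.03 over the brightest 25%. All FLAG-CTCFL arrays lay above all control arrays for 23 of the 48 and below them for 7, where 18.3% and 23.0% of all genes did so, 41.3% in either direction. Of the 40 bright proteasome genes 20 lay above and 5 below, where 57.1% of the brightest 25% of genes did not overlap, 22.0% above and 35.1% below. The rises were at most 0.39 on the log2 scale, 1.31-fold, and the largest fall was 1.68-fold.

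**Figure D1:**
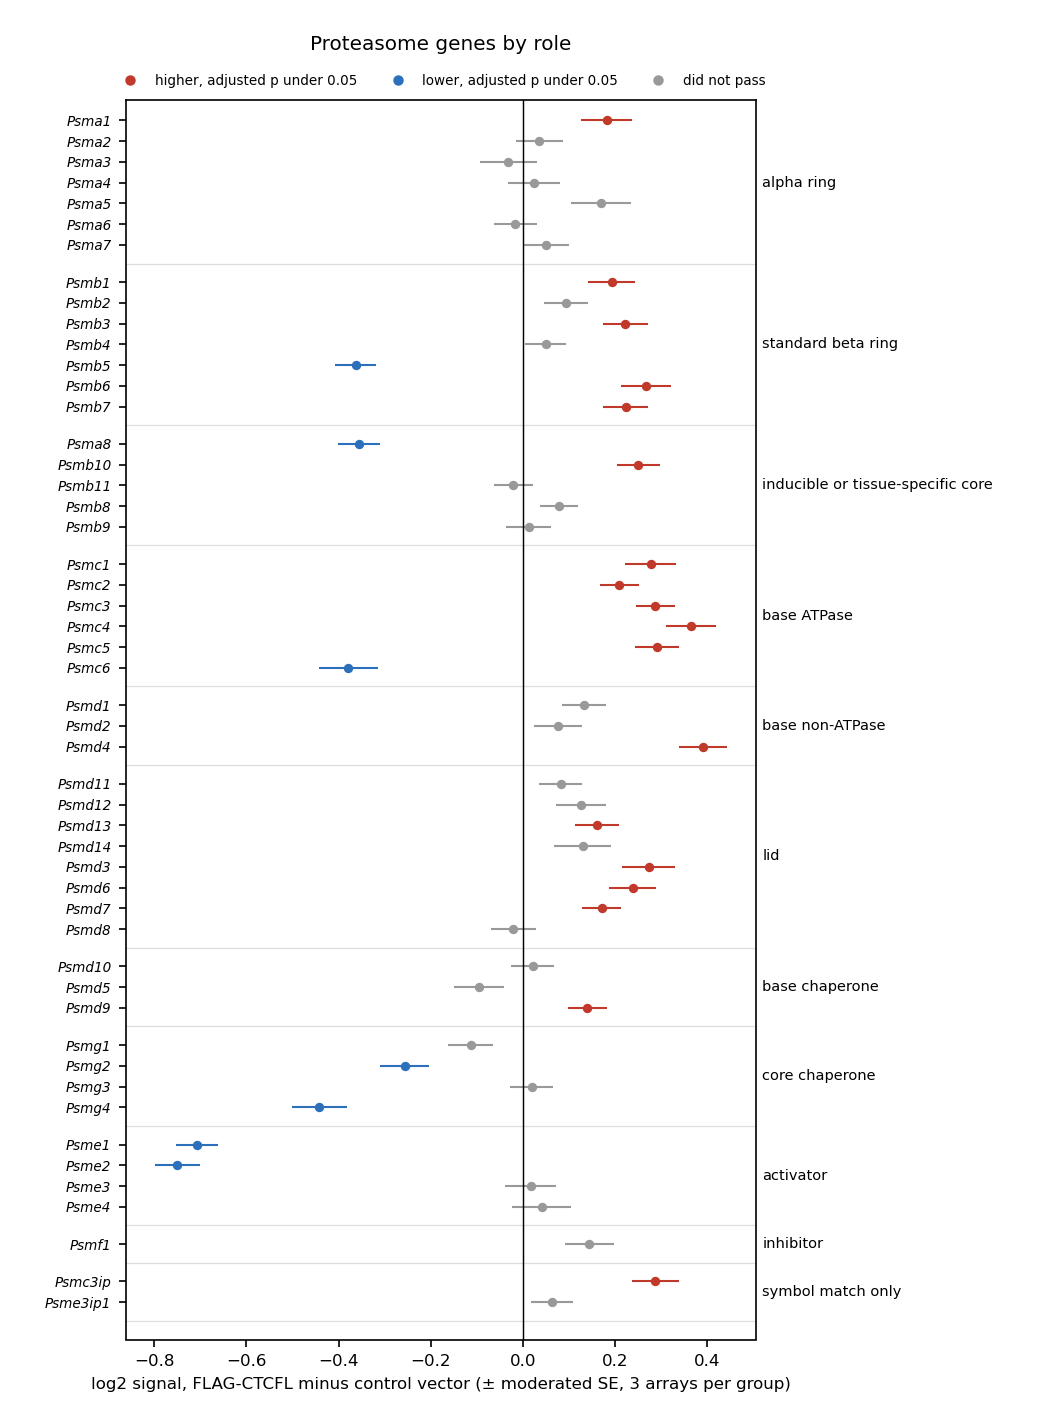
Log2 difference between FLAG-CTCFL and control vector arrays (x axis) for each of the 50 genes, grouped by role, with the moderated SE from 3 arrays per group. Red points passed as higher, blue as lower and grey did not pass; the base ATPases lie at 0.21 to 0.37 except Psmc6 at -0.38, and Psme1 and Psme2 lie lowest at -0.71 and -0.75.

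The regulatory particle held most of the rises. Of its 17 measured subunits with a Psm symbol 10 were higher (58.8%) and 1 lower (5.88%), with a median difference of 0.17. Of the 14 standard core subunits 5 were higher (35.7%) and 1 lower (7.14%), with a median of 0.07. Among the 17 remaining genes, which are exchangeable core subunits, chaperones, activators and the inhibitor, 2 were higher (11.8%) and 5 lower (29.4%). Over all genes 12.5% were higher and 18.4% lower, so the share of rises among these 17 was near the background. The same background stands beside the counts by role in the paragraphs below. These counts describe the groups, and the difference between the groups was not tested.

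The ATPases of the base form the ring that unfolds substrates and opens the core. All 6 passed, 5 of them higher and 1 lower. Psmc4 was at 11.34, 11.28 and 11.22 in control cultures and at 11.73, 11.54 and 11.66 in FLAG-CTCFL cultures, a rise of 0.37 ± 0.05 (moderated SE, n = 3 per group; limma adjusted p = 0.000155). Psmc5 read 9.72, 9.70 and 9.64 against 10.05, 9.91 and 9.97, a rise of 0.29 ± 0.05 (limma adjusted p = 0.000364). Psmc3 went from 10.19, 10.16 and 10.15 to 10.47, 10.41 and 10.49, a rise of 0.29 ± 0.04 (limma adjusted p = 0.000147). In these 3 genes every FLAG-CTCFL array stood above every control array. Psmc1 had control values of 10.49, 10.54 and 10.45 and FLAG-CTCFL values of 10.87, 10.65 and 10.80, a rise of 0.28 ± 0.06 (limma adjusted p = 0.00166), with separate groups, and its second row on the array gave 0.29. Psmc2 rose by 0.21 ± 0.04 (limma adjusted p = 0.00177). The sixth ATPase went the other way with no overlap of the groups. Psmc6 was at 11.54, 11.49 and 11.44 in control cultures and at 11.26, 10.96 and 11.11 with FLAG-CTCFL, a fall of -0.38 ± 0.06 (limma adjusted p = 0.000455).

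**Figure D2:**
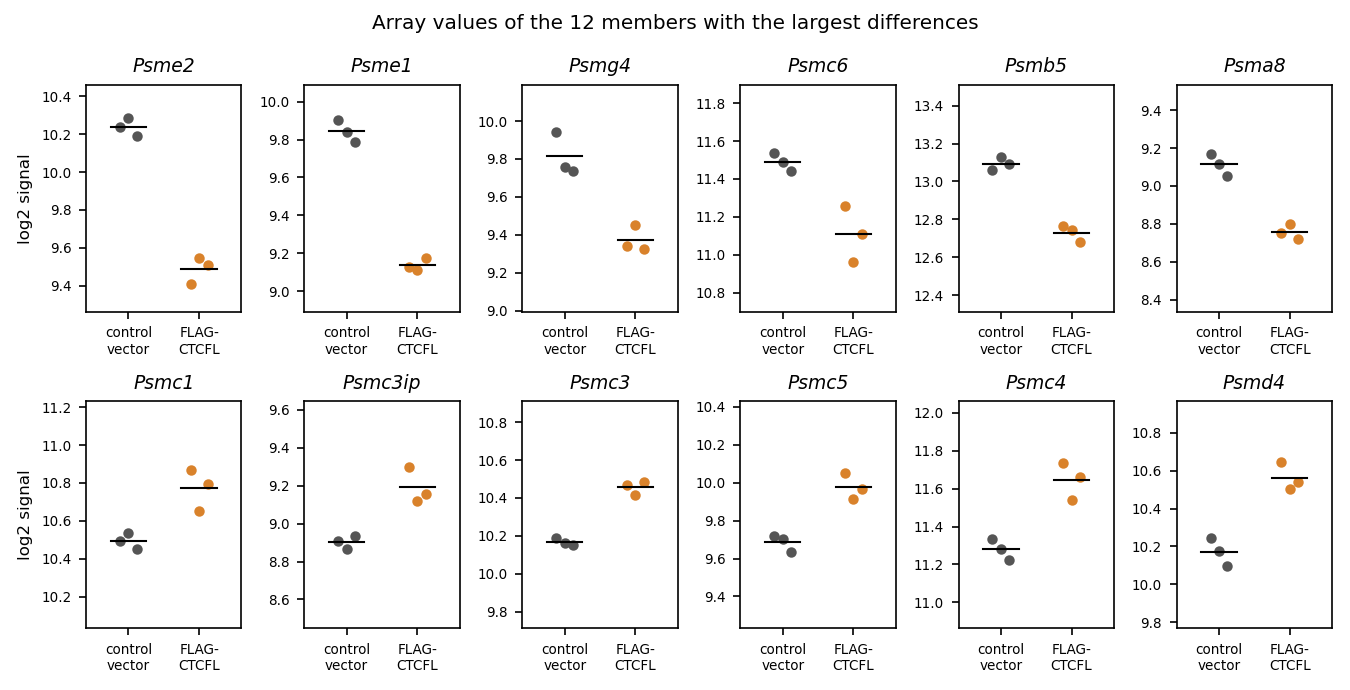
Log2 signal (y axis, each panel spanning the same 1.2 units) of every array for the 12 of 50 genes with the largest absolute difference, control vector in grey and FLAG-CTCFL in orange, with group means as lines. The groups do not overlap in any of the 12 panels; Psme2 and Psme1 show the widest gaps, with means of 10.24 against 9.49 and 9.84 against 9.14.

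The other subunits of the base hold ubiquitin receptors and the scaffold on which shuttle factors dock. Psmd4, a ubiquitin receptor, showed the largest rise of the 48 genes. Its values were 10.25, 10.18 and 10.10 in control cultures and 10.65, 10.50 and 10.54 in FLAG-CTCFL cultures, a rise of 0.39 ± 0.05 (1.31-fold; limma adjusted p = 7.06e-05). The scaffold genes Psmd1 (0.13, limma adjusted p = 0.0540) and Psmd2 (0.08, limma adjusted p = 0.333) did not pass. The FLAG-CTCFL arrays of Psmd1, at 12.60, 12.50 and 12.47, nevertheless all lay above its control arrays, at 12.36, 12.45 and 12.37.

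Promoters are shown for genes that stand for the main patterns: Psmd4 and Psmc4 for the rises, Psmc6 as the ATPase that fell and Psme1 for the activators that fell. Each is the 250 bases before the gene's start on the gene's strand, 5′ to 3′, from RefSeq on GRCm38.p6, and capitals mark matches on either strand to the motifs listed after them.
Psmd4 (chr3:95042615-95042864, - strand): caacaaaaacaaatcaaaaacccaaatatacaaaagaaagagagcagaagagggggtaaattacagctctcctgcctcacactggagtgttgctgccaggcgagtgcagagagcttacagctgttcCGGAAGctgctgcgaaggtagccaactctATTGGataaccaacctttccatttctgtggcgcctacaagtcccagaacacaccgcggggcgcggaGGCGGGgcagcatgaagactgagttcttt
Psmc4 (chr7:28050093-28050342, - strand): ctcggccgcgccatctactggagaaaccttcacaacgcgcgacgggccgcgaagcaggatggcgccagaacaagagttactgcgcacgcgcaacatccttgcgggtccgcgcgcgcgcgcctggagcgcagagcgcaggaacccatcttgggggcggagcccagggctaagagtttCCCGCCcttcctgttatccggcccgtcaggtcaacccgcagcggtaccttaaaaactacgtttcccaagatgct
Psmc6 (chr14:45329574-45329823, + strand): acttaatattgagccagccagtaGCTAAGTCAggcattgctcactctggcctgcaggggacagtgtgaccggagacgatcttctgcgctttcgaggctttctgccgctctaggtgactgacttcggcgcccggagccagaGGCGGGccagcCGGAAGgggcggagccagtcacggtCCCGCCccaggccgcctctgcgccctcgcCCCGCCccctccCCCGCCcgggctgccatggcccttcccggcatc
Psme1 (chr14:55578244-55578493, + strand): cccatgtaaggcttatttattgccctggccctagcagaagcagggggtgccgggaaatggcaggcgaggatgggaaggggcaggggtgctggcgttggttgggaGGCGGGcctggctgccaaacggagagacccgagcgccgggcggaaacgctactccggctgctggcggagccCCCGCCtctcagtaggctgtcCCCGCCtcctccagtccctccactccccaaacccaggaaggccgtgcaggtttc

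The motifs searched were TGACNNNGC, the core of the antioxidant element that NFE2L1 and NFE2L2 bind, CCAAT, the box of NF-Y, CGGAAG, the core of ETS factors, GGCGGG, the GC box, and GGNGGCAG, the core of the CTCF motif. RefSeq windows were found for 40 of the 48 genes, and matches of different motifs did not overlap in the windows printed. Psmd4 holds an ETS core, an NF-Y box and a GC box, Psmc4 and Psme1 hold only GC boxes, and Psmc6 holds the antioxidant core, an ETS core and GC boxes. The ETS core was found in 47.5% of proteasome gene promoters, against 15.3% of all genes with a window and 34.5% of the brightest 25% of genes. For the GC box the shares were 70.0%, 35.1% and 68.2%, for the NF-Y box 35%, 37.5% and 41.1%, and for the antioxidant core 12.5%, 11.5% and 14%. The antioxidant core was in the windows of Psmb5, Psmb6, Psmc6, Psmd9 and Psmd12. For the CTCF core the shares were 10.0%, 11.2% and 12.3%. Such matches describe the letters and are no evidence of binding.

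The lid carries the deubiquitinase that strips the ubiquitin chain. Of its 8 genes with a Psmd symbol 4 were higher and the other 4 did not pass. Psmd3 (0.27 ± 0.06, limma adjusted p = 0.00244), Psmd6 (0.24 ± 0.05, 0.00273), Psmd7 (0.17 ± 0.04, 0.00653) and Psmd13 (0.16 ± 0.05, 0.0197) rose, all of them structural subunits. The deubiquitinase gene Psmd14 read 12.24, 12.29 and 12.19 in control cultures and 12.52, 12.28 and 12.30 in FLAG-CTCFL cultures (0.13, limma adjusted p = 0.141), so 1 FLAG-CTCFL array fell within the control range. Psmd12 (0.13) and Psmd11 (0.08) did not pass although their arrays did not overlap, and Psmd8 was at -0.02. Psmd13 no longer passed with array medians subtracted (0.14) or when control replicate 3 (0.14) or FLAG-CTCFL replicate 1 (0.12) was left out.

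In the standard core most calls lay in the beta ring. Of the 7 standard beta genes 4 were higher, with Psmb6 (0.27 ± 0.05, limma adjusted p = 0.00189) and Psmb7 (0.22 ± 0.05, 0.00317), both catalytic subunits, and Psmb3 (0.22 ± 0.05, 0.00307) and Psmb1 (0.19 ± 0.05, 0.0110), which have no active site. A second row of Psmb3 gave 0.29. Psmb2 (0.09) and Psmb4 (0.05) did not pass. Psmb5, the third catalytic subunit of the standard core and the target of the drug bortezomib, was lower. It was at 13.06, 13.13 and 13.09 in control cultures and at 12.77, 12.75 and 12.68 with FLAG-CTCFL, a fall of -0.36 ± 0.04 (1.29-fold; limma adjusted p = 2.80e-05), with a wide gap between the groups. Psmb1 no longer passed with array medians subtracted (0.17) and without control replicate 2 (0.18) or 3 (0.17).

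Of the 7 alpha ring genes only Psma1 passed, at 0.18 ± 0.06 (limma adjusted p = 0.0234). It no longer passed with array medians subtracted (0.16), without any 1 of the control arrays (0.17 to 0.19) and without FLAG-CTCFL replicate 1 (0.12). Psma5 stood at 0.17 with limma adjusted p = 0.0670. With every row tested its second row passed, at 0.16 (limma adjusted p = 0.0473), and its brightest row did not. The brightest row passed after quantile normalization (0.23), with the replicate block (0.17), with array weights (0.18) and with genes under the 50th percentile left out (0.17). The array weights gave FLAG-CTCFL replicate 3 a weight of 5.77 and replicates 1 and 2 weights of 0.414 and 0.321. That run thus rests mostly on replicate 3 of this group. Psma5 also passed without control replicate 1 (0.24) or FLAG-CTCFL replicate 2 (0.22). The other 5 alpha genes lay between -0.03 and 0.05, and the 3 rows of Psma3 between -0.03 and 0.01.

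The exchangeable core subunits replace standard ones in particular cells. Psmb8, Psmb9 and Psmb10 form the immunoproteasome, which is induced by interferon gamma and favours peptides for antigen presentation. Psmb10 was higher, from 8.80, 8.69 and 8.79 to 8.96, 9.04 and 9.03, by 0.25 ± 0.05 (limma adjusted p = 0.000872), with no overlap of the groups. Psmb9 read 8.55, 8.62 and 8.63 in control cultures and 8.62, 8.68 and 8.54 in FLAG-CTCFL cultures (0.01, limma adjusted p = 0.897), with overlapping groups. Psmb8 was dim, at 7.27, 7.23 and 7.30 against 7.33, 7.36 and 7.34 (0.08, limma adjusted p = 0.198), all below the receptor gene percentile of 7.63. Psmb11, a subunit of the thymus, also lay below it, at 7.58, 7.57 and 7.51 against 7.52, 7.53 and 7.56 (-0.02, limma adjusted p = 0.797). A small change of these dim genes may not have been detectable. Of 5 leukocyte markers, listed because such cells hold immunoproteasomes, Laptm5 (-0.83) and Cd74 (-0.30) were lower, and Ptprc, Cd52 and Tyrobp, with group means of 7.43 to 7.62, did not pass. The list mean was 8.33 to 8.36 in control cultures and 8.10 to 8.18 in FLAG-CTCFL cultures. Laptm5 was by far the brightest of the 5, with group means of 11.12 and 10.29. Ptprc, Cd52 and Tyrobp lay below the receptor gene percentile of 7.63. The list mean therefore leans on Laptm5 and does not show how many leukocytes were present.

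Psma8 codes for the alpha subunit of the testis proteasome, which male germ cells need in meiosis. It was lower, from 9.17, 9.12 and 9.06 to 8.75, 8.80 and 8.72, by -0.36 ± 0.05 (1.28-fold; limma adjusted p = 4.72e-05), with separate groups. Its standard counterpart Psma7 was at 0.05 (limma adjusted p = 0.529). Psmc3ip, which shares its symbol stem with Psmc3 but codes for a meiotic recombination factor, was higher. It read 8.91, 8.87 and 8.93 in control cultures and 9.30, 9.12 and 9.16 with FLAG-CTCFL, a rise of 0.29 ± 0.05 (limma adjusted p = 0.000697), with replicate 1 the highest and no overlap. Psme3ip1, whose product binds that of Psme3, was at 10.09, 10.05 and 10.12 against 10.16, 10.09 and 10.20 (0.06, limma adjusted p = 0.365), and its groups overlapped.

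The activators cap the core without ATP. Psme1 and Psme2, which form 1 joint ring that interferon gamma induces, showed the largest falls of the 48 genes, and the promoter of Psme1 is printed beside those of the ATPase genes. Psme1 was at 9.91, 9.84 and 9.79 in control cultures and at 9.13, 9.11 and 9.17 in FLAG-CTCFL cultures, a fall of -0.71 ± 0.05 (1.63-fold; limma adjusted p = 8.73e-08). Psme2 went from 10.24, 10.29 and 10.19 to 9.41, 9.55 and 9.51, a fall of -0.75 ± 0.05 (1.68-fold; limma adjusted p = 9.39e-08). The gap between groups in both genes was several times the range within a group. Psme3, whose product caps the core in the nucleus, was at 11.60, 11.61 and 11.55 against 11.73, 11.52 and 11.56 (0.02, limma adjusted p = 0.871). Psme4, a nuclear activator with a role in spermatogenesis, was at 11.91, 12.05 and 11.90 against 12.11, 11.86 and 12.02 (0.04, limma adjusted p = 0.717). Both overlapped between groups. The inhibitor gene Psmf1 stood at 0.14 (limma adjusted p = 0.0558), with no overlap. It passed after quantile normalization (0.20), with array weights (0.20, resting mostly on FLAG-CTCFL replicate 3) and without FLAG-CTCFL replicate 2 (0.20). With genes under the 25th or the 50th percentile left out it passed too (0.14 in both).

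Of the 4 Psmg genes, which code for assembly chaperones of the core particle, 2 fell and 2 did not pass. Psmg4 was at 9.94, 9.76 and 9.74 in control cultures and at 9.34, 9.45 and 9.32 with FLAG-CTCFL, a fall of -0.44 ± 0.06 (limma adjusted p = 6.17e-05). No array of one group reached the range of the other. Psmg2 fell by 0.26 on the log2 scale (limma adjusted p = 0.00216), and Psmg1 (-0.11, limma adjusted p = 0.106) and Psmg3 (0.02) did not pass. Of the chaperones of the base, Psmd9 was higher (0.14 ± 0.04, limma adjusted p = 0.0210), a call lost without any 1 of the control arrays (0.14 in each case) and after subtraction of array medians (0.12). Psmd5 (-0.10) and Psmd10 (0.02) did not pass.

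FLAG-CTCFL arrays did not read the genes alike. FLAG-CTCFL replicate 1 was the highest of its group for 33 of the 48 genes and replicate 2 the lowest, also for 33. The same count was not made over all genes, so this order is not shown to be particular to these genes. Relative to each gene's control mean, the median over the 48 genes was 0.15, 0.04 and 0.06 in FLAG-CTCFL replicates 1, 2 and 3, and 0.02, 0.01 and -0.04 in the control arrays. The arrays' SDs over all rows were 1.47, 1.41 and 1.44 in the FLAG-CTCFL group. The number of proteasome genes that passed moved with the scaling. After quantile normalization 24 were higher and after subtraction of array medians 13, with 7 lower in both. Over all 19937 genes the count moved the same way, from 2496 higher to 3451 and 1785 in these runs, with 3654 and 3811 lower. Without FLAG-CTCFL replicate 1 there were 15 proteasome genes higher and 9 lower, and without replicate 2 there were 23 and 7. Over all genes these runs gave 2548 higher and 3880 lower, and 2818 and 3611.

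The change of each gene was set beside that of its neighbours along the chromosome. Of the 7 lower genes 4 are on chromosome 14 (Psmc6, Psmb5, Psme1 and Psme2), and of all 699 measured genes on chromosome 14 37.2% were lower and 6.29% higher. The median difference of the 20 nearest measured genes was -0.31 for Psmc6, -0.13 for Psmb5, -0.15 for Psme1 and -0.23 for Psme2. Psmc6 thus differed by about as much as its neighbours (-0.38), whereas Psme1 and Psme2, which are neighbours of each other, stood well below theirs. The part of the chromosome in these falls was not tested. Psmb11 sits near Psmb5 and was at -0.02, but it lay below the receptor gene percentile of 7.63, so a fall may not have been detectable. Psmd6, elsewhere on chromosome 14, rose by 0.24 beside neighbours at -0.03. Off chromosome 14, 16 of 42 genes were higher and 3 lower, the latter being Psma8 (neighbours at -0.01), Psmg4 (-0.08) and Psmg2 (-0.13). The neighbours of the 17 higher genes had medians between -0.10 and 0.06. Among them Psmd13 rose while 9 of its 20 neighbours were lower.

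**Figure D3:**
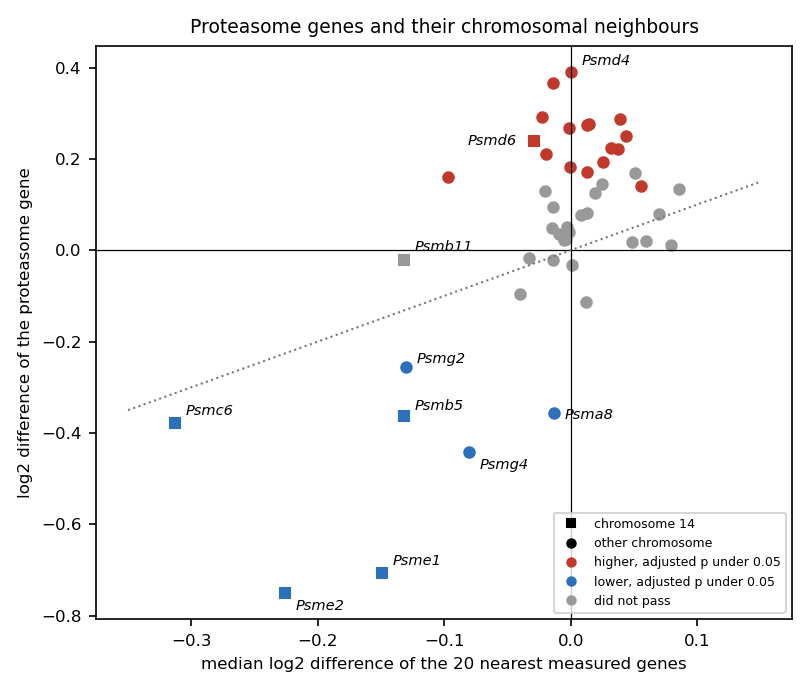
Log2 difference of each of the 48 proteasome genes (y axis) against the median log2 difference of the 20 nearest measured genes on its chromosome (x axis), with squares for chromosome 14 and a dotted line where both are equal. The higher genes (red) sit above neighbours near 0, and of the lower genes (blue) Psmc6 lies closest to the dotted line, at -0.38 against -0.31.

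Genes that work with the proteasome moved in both directions. Of 56 listed genes 40 were measured under 1 symbol, of which 10 were higher and 8 lower, 25% and 20% against the background of 12.5% and 18.4%, with a median of 0.02. The ATPase Vcp, which extracts tagged proteins for the proteasome, rose by 0.39 ± 0.05 (limma adjusted p = 7.07e-05), from 11.49, 11.62 and 11.56 to 12.04, 11.88 and 11.94. Its cofactors Nploc4 (0.32 ± 0.05, limma adjusted p = 0.000396) and Nsfl1c (0.26 ± 0.05, 0.00127) rose too, and 3 of the 6 genes of this group passed, all higher. Pomp, the maturation factor of the core, rose by 0.28 ± 0.05 (limma adjusted p = 0.000527), from 10.03, 9.95 and 9.88 to 10.26, 10.20 and 10.22. Ecpas, an adaptor that tethers core and regulatory particle, fell by 0.24 on the log2 scale (limma adjusted p = 0.00565). The proteasome deubiquitinase gene Usp14 was at -0.08 (limma adjusted p = 0.429) and the subunit gene Sem1 at -0.0053 (0.964).

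Nfe2l1 codes for the transcription factor that raises proteasome genes when the proteasome is short of capacity. Its own RNA was at 10.56, 10.67 and 10.65 in control cultures and at 10.73, 10.58 and 10.61 with FLAG-CTCFL (0.01, limma adjusted p = 0.888), with overlapping groups. Of the 6 listed genes that control proteasome genes 4 were lower (66.7%), where 18.4% of all genes were. The list holds both Nfe2l1, which raises proteasome genes, and a repressor, so this count has no common meaning for them. Ngly1, the glycanase that processes the Nfe2l1 product, fell by 0.42 on the log2 scale (limma adjusted p = 2.64e-05) and lies on chromosome 14, where its neighbours had a median of -0.07. The repressor gene Bach1 (-0.27, limma adjusted p = 0.00148) and Nfe2l3 (-0.20, 0.00510) fell as well, as did Keap1 (-0.13, 0.0482), a call lost when any 1 control array or FLAG-CTCFL replicate 1 was left out (-0.15 to -0.09).

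Of the shuttle factors and delivery genes, Midn (0.24) and Zfand5 (0.21) rose and Ubqln2 (-0.15) fell, 3 of 7 measured. That is 28.6% higher and 14.3% lower, where 12.5% and 18.4% of all genes were. The groups overlapped for Zfand5, with FLAG-CTCFL replicate 2 at 10.09 and control replicate 1 at 10.12. Of the proteotoxic stress genes, Hsph1 (0.33) rose and Bag3 (-0.29) fell, 2 of 4 measured. The class I pathway, which uses the peptides that the proteasome makes, had 2 of 7 genes higher (28.6%) and 1 lower (14.3%). B2m rose by 0.49 and Tap2 by 0.14, and Tapbp fell by 0.25 on the log2 scale. Fbxo7 (0.12), a partner of the proteasome inhibitor Psmf1, was also higher. The calls of Zfand5 (0.15 to 0.21), Ubqln2 (-0.16 to -0.13), Tap2 (0.12 to 0.14) and Fbxo7 (0.11 to 0.13) were lost when some arrays were left out, for Fbxo7 with any 1 of the 6. The arrays for the others were control replicates 2 and 3 and FLAG-CTCFL replicates 1 and 3 for Zfand5, control replicates 2 and 3 and FLAG-CTCFL replicates 2 and 3 for Ubqln2, and control replicates 1 and 2 and FLAG-CTCFL replicates 2 and 3 for Tap2.

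**Figure D4:**
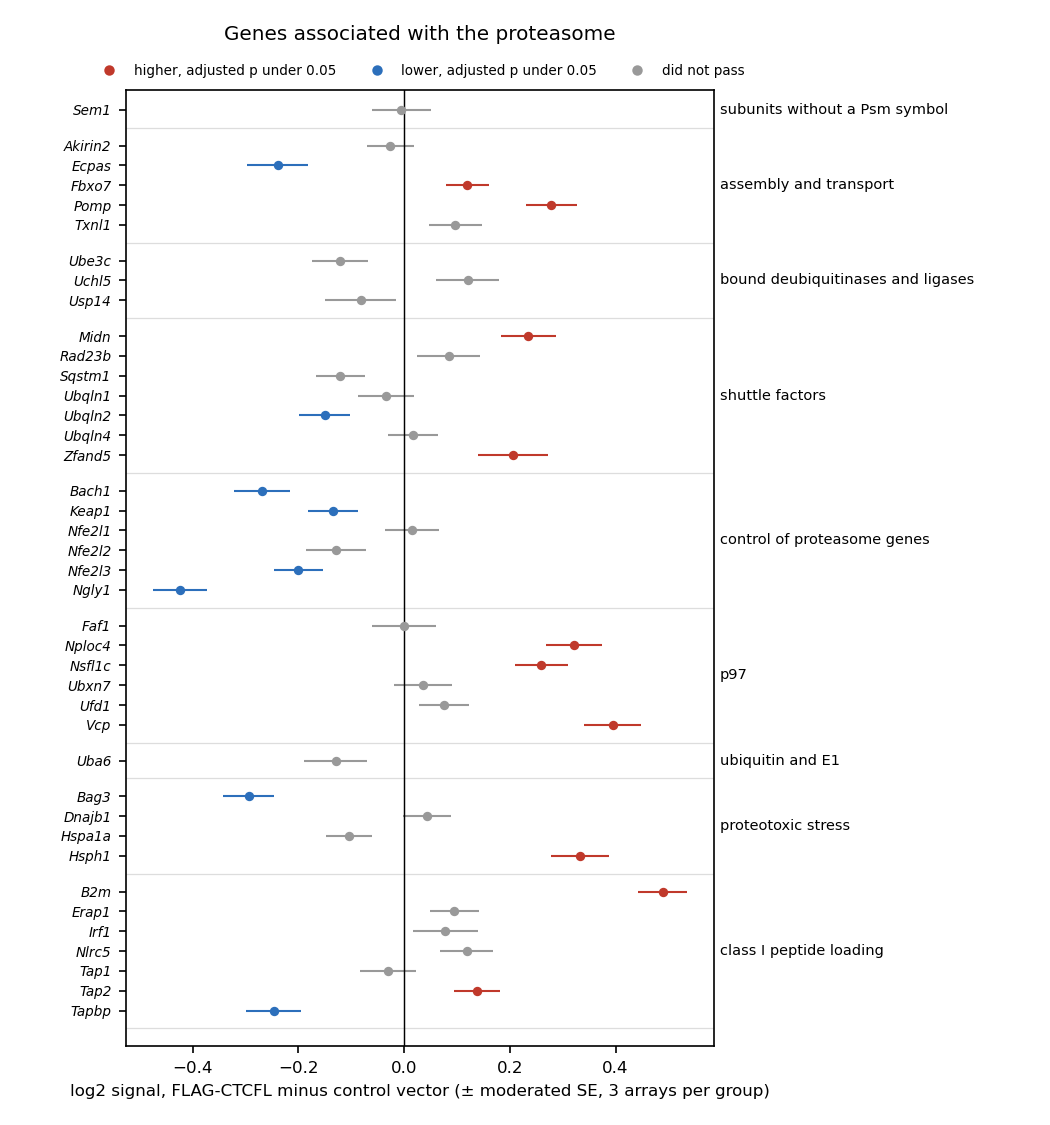
Log2 difference between FLAG-CTCFL and control vector arrays (x axis) with the moderated SE from 3 arrays per group, for the 40 measured genes associated with the proteasome, by group. Red points passed as higher, blue as lower and grey did not pass; Vcp, Nploc4 and Nsfl1c lie at 0.39, 0.32 and 0.26, and 4 of the 6 genes that control proteasome genes lie below 0 in blue.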

How the data were processed

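Transcripts of 6 ES cell cultures, 3 per group, were measured by array hybridisation of labelled total RNA (200 ng each), per the labels' protocols. The authors deposited 1 log2 signal per row and array. The log2 scale was inferred from the values, which run from 5.73 to 14.56. The sources used here do not give the background correction, summarisation, normalization or software. A change common to all genes could be hidden by such normalization. The number of arrays limits the precision.

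Exactly 1 symbol was annotated to 21640 of 34760 rows, several to 1321 and none to 11799. For 21553 rows the Entrez ID was found in the GRCm38.p6 table and the symbol was taken from there, whether or not it differed. Keeping the row with the highest mean over all arrays per symbol gave 19937 genes. The comparison used limma 3.58.1 (R 4.3.3): lmFit with group alone, then eBayes, two-sided, with Benjamini-Hochberg adjustment over all genes, a threshold of 0.05 and no filter on dim genes. Lists got counts and medians and no test. Neighbours were the 10 nearest measured genes on each side in GRCm38.p6 gene order, and promoter windows were those of the RefSeq table of that build.

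The members, roles and lists were chosen with earlier results of these data known. By the rule for naming, the 12 members past the threshold with the largest differences, exchangeable core subunits, activators and symbol matches got every array value, and of the associated list called genes, Nfe2l1, Pomp and Usp14 were named. Sem1 and Tap1, and the array values of Psmd1 and Psmd14, were added after their values were seen. Tried as alternatives were a replicate block, quantile normalization, array medians subtracted, leaving out genes dimmer than the 25th or the 50th percentile, the mean of a gene's rows, every row tested, a trended robust variance, array weights, an adjusted p of 0.1, omission of chromosomes 6, 14 and X (where earlier results showed runs of lower genes) and of each array in turn. Same-numbered arrays of the groups did not deviate together (correlations of 0.134, -0.204 and -0.021), so they were not treated as pairs. The procedure was tested on simulated data. Plots were made with matplotlib 3.10.9 under Python 3.11.15.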

Additional observations from a re-analysis of the deposited data

How the results depend on the processing

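Of the 25 called members by symbol, Psmc3ip included, 21 kept their call and direction in each alternative run, and Psma1, Psmb1, Psmd13 and Psmd9 lost it in some, none with a change of sign. The 7 falls passed in every alternative in which their genes were tested. With chromosomes 6, 14 and X left out, 3 proteasome genes and 5 associated genes were lower and 16 and 10 higher. Of the 17400 genes in that run 2912 were lower and 2258 higher. Proteasome genes higher ranged from 13 to 24 over the alternatives, all genes higher from 1785 to 4195, the highest with array weights. The weighted run rests mostly on FLAG-CTCFL replicate 3, with a weight of 5.77. With the replicate number as a block 5979 genes were called, and of the 48 proteasome genes 18 were higher and 7 lower; the block is a number only, not a pairing in the design. Of the 25 uncalled, Psma5, Psmb2, Psmd1, Psmd5, Psmd11, Psmd12, Psmd14, Psmg1, Psmf1 and Psme3ip1 passed in some alternative. Without FLAG-CTCFL replicate 2 Psma5 (0.22), Psmb2 (0.13), Psmd1 (0.15), Psmd12 (0.16), Psmd14 (0.18) and Psmf1 (0.20) passed, and without replicate 1 Psmd5 (-0.16) and Psmg1 (-0.15). Of the associated genes Fbxo7 and Keap1 lost their calls with the replicate block. With array medians subtracted Fbxo7, Tap2 and Zfand5 lost theirs, and 7 associated genes were higher. Signs of some uncalled genes near 0 turned. After quantile normalization Psma3 was at 0.0338, Psma6 at 0.0174, Psmd8 at 0.0476 and Psmg3 at -0.0113. After subtraction of array medians Psma4 was at -0.0010, Psmb9 at -0.0125, Psmd10 at -0.0034, Psmg3 at -0.0054, Psme3 at -0.0075 and Nfe2l1 at -0.0107. With array weights Psmb9 was at -0.0502, Psmg3 at -0.0094, Psme3 at -0.0203 and Nfe2l1 at -0.0179. With 1 array left out the ranges were -0.0126 to 0.0862 for Psma2, -0.0983 to 0.0142 for Psma3, -0.0261 to 0.068 for Psma4, -0.042 to 0.0126 for Psma6, -0.0203 to 0.0485 for Psmb9, -0.0596 to 0.0202 for Psmd8, -0.0045 to 0.0618 for Psmd10, -0.017 to 0.0409 for Psmg3, -0.0469 to 0.0588 for Psme3, -0.0161 to 0.109 for Psme4 and -0.0313 to 0.0422 for Nfe2l1. The RNA of dim genes such as Psmb8 and Psmb11 could change without being seen.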

Other observations

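Genes of the interferon-induced proteasome and class I pathway moved in both directions. Psme1 (-0.71) and Psme2 (-0.75) were lower, Psmb10 (0.25) and B2m (0.49) higher, and Psmb9 (0.01) and Tap1 (-0.03) did not pass. The catalytic genes of the standard core did too, with Psmb6 (0.27) and Psmb7 (0.22) higher and Psmb5 (-0.36) lower.

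A row annotated to both Psme2 and its near-identical copy Psme2b, left out above because it has more than 1 symbol, was at 8.96, 8.94 and 8.75 in control cultures and at 8.34, 8.37 and 8.41 in FLAG-CTCFL cultures, a difference of -0.51. Signal shared between these copies cannot be told apart on the array. Psma3, Psma5, Psmb3, Psmc1 and Psmd2 had more than 1 row each, and the rows of a gene differed from each other by at most 0.07 in their log2 difference.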
